A study of Mus musculus with 8 samples.

Results

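Globin expression was read in 8 wild-type (Eed wt/wt) mouse embryos, through the array probes whose transcript accession belongs to Hbb-y, Hbb-bh1, Hba-x, Hba-a1 or Hba-a2. These 5 genes had 6 probes, with 2 for Hbb-y and 1 for each of the others, out of 55681 probes that are not controls. All 6 were among the 33093 probes that passed the filter on dim signal, and each was well above background on all 8 arrays. None of their spots was saturated or marked as an outlier. The genes were listed by name and not picked by a difference between groups, but earlier results of these data were known at that point.

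Every embryo was collected at E8.5 on a mixed C57bl6/129 background and had a wild-type mother. In 4 embryos (WT 1 to WT 4) the father was Eed wt/wt, and in the other 4 (HET 1 to HET 4) it was Eed hypo/wt, a carrier of the hypomorphic Eedl7Rn5-1989SB allele, a point mutation that lowers the function of a core subunit of Polycomb repressive complex 2. Each group held 2 females (WT 1, WT 3, HET 2 and HET 4) and 2 males (WT 2, WT 4, HET 1 and HET 3), and each embryo was hybridised to its own one-colour Agilent 8x60K array. The embryos were matched for stage by photographs and notes before the RNA was prepared. The question was whether the genotype of the father alters expression in offspring that carry no mutation themselves. The 4 arrays of each group shared a slide of their own, which means that an effect of the slide and one of the father cannot be told apart. The labels of WT 2, WT 3 and WT 4 have the same first part in the embryo code, whose meaning is not given. The study describes several fathers and mothers for a genotype, but fewer wild-type fathers in one legend than there are embryos, and the labels do not tie an embryo to its parents, so some embryos of a group may share a father or a litter. A p-value then measures the spread between these embryos only.

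Red blood cells at this stage are primitive erythroblasts, large nucleated cells that arise in the blood islands of the yolk sac and enter the circulation as the heart starts to beat. Hemoglobin joins a pair of α-type chains with a pair of β-type chains, each chain holding a heme group. Primitive cells make the embryonic chains encoded by Hbb-y (εy), Hbb-bh1 (βh1) and Hba-x (ζ) together with the α chains of Hba-a1 and Hba-a2, which later serve adult hemoglobin as well. Definitive red cells of the fetal liver and bone marrow use adult β genes instead. In the RefSeq gene table, the α-type genes lie on chromosome 11 in the order Hba-x, Hba-a1, Hbq1b, Hba-a2, Hbq1a, and the β-type genes on chromosome 7 with Hbb-y at the 5′ end of the cluster, followed by Hbb-bh1. Eed itself is also on chromosome 7.

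The sequence in front of a globin gene is where GATA1, the Krüppel-like factors and general promoter-binding proteins are known to act. The 200 bases before the start site of 3 of the 5 genes are printed here, 5′ to 3′ on the strand of the gene, from RefSeq annotation on GRCm38.p6. Capitals mark every match, on either strand, to the letters GATAA of a GATA motif, the letters CACCC of a Krüppel-like motif, the CCAAT box and the letters TATAA of a TATA box, none of which overlapped another. The windows are chr7:103853208-103853407 on the minus strand for Hbb-y, chr11:32276400-32276599 on the plus strand for Hba-x and chr11:32283472-32283671 on the plus strand for Hba-a1.
Hbb-y: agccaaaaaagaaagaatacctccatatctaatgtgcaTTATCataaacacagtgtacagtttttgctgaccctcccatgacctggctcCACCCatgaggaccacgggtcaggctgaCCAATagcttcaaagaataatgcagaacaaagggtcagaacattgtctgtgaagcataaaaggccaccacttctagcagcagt
Hba-x: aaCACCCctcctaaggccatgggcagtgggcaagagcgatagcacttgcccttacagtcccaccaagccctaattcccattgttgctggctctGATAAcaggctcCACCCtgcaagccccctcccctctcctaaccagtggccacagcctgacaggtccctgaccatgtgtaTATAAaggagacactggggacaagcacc
Hba-a1: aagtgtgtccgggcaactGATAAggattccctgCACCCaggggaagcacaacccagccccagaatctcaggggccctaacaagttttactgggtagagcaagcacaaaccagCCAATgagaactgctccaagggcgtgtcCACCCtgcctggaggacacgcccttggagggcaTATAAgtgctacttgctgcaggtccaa
Hbb-y held a GATA motif on the opposite strand, a Krüppel-like motif and a CCAAT box. In Hba-x the matches were a GATA motif, Krüppel-like motifs at 2 places and a TATA box, and Hba-a1 had these and a CCAAT box. Of 32817 promoter windows of the same length in the table, 18.1% held the GATA motif, 45.5% the Krüppel-like motif, 29.3% the CCAAT box and 18.5% the TATA box on either strand. Identity was computed over a longer stretch, the 250 bases before each start. Shifted by 3 bases, those of Hba-a1 and Hba-a2 were 100% identical over the 247 bases that overlap, and Hba-a2 is therefore not printed. For Hba-x and Hba-a1 the best ungapped placement gave 30.8% identity over 240 overlapping bases. No promoter entry was matched for Hbb-bh1. A match of letters is a description and was not tested as a binding site.

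Across the 8 embryos all 6 globin probes were lowest in WT 4 and highest in WT 1. Values here and below are the log2 of the spot intensity minus the 75th percentile of its array, so 0 is the level of a probe at that percentile, and they are compared between embryos for the same probe only. WT 4 lay 4.13-fold below the mean of the other 7 embryos at the first Hbb-y probe, 4.27-fold at the second, 2.56-fold at Hba-a1, 2.01-fold at Hba-x, 1.84-fold at Hba-a2 and 1.36-fold at Hbb-bh1. In whole-embryo RNA, fewer red cells and less globin RNA in each cell cannot be told apart.

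Hbb-y encodes the εy chain, one of the embryonic β-type chains. At its first probe the log2 signal was 8.38, 7.94, 7.75 and 5.75 in WT 1 to WT 4, and 7.72, 7.96, 7.90 and 6.96 in HET 1 to HET 4. The second probe gave 7.92, 7.39, 7.05 and 5.11 with wild-type fathers and 7.12, 7.32, 7.36 and 6.27 with heterozygous fathers. Both probes placed WT 4 lowest and HET 4 next, and the father groups overlapped at both. The HET 4 array had a median local background of 133, against 30 to 32 on the rest of its slide. On that array the median pixel signal was 118490 at the first Hbb-y probe and 81494 at the second. The part of the background in the Hbb-y signal of HET 4 was not tested. The first probe spanned a 6.18-fold range over the 8 embryos, and 2.68-fold without WT 4. For the second the range was 7.02-fold, and 3.14-fold without WT 4. The probes gave nearly the same picture, and their difference from embryo to embryo stayed within 0.24 on the log2 scale after each was centred on its mean. The SD over the 8 embryos, 0.83 and 0.87, was larger than that of 90.8% and 91.7% of all tested probes.

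Hbb-bh1 encodes βh1, the other embryonic β-type chain. Its log2 signal was 8.98, 8.58, 8.73 and 8.32 in WT 1 to WT 4, and 8.61, 8.87, 8.87 and 8.71 in HET 1 to HET 4. WT 4 was again lowest, but by 0.26 below the next embryo, against at least 1.16 at the Hbb-y probes, and the father groups overlapped. The range over the embryos was 1.59-fold, the smallest of the 6 probes, and 48.6% of all tested probes had a smaller SD. This was a bright spot, whose median pixel signal reached 44.0% to 60.02% of the scanner's saturation value. Its processed intensity was 68.8% to 102% of the top of the linear range that the spike-in controls of the same array gave. Whether the narrow range of Hbb-bh1 comes from that upper end was not tested.

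Hba-x encodes the ζ chain, the α-type chain made in primitive cells. Its log2 signal was 7.75, 7.35, 7.56 and 6.50 in WT 1 to WT 4, and 7.35, 7.59, 7.47 and 7.47 in HET 1 to HET 4. Apart from WT 4, which lay 0.85 below the next embryo, the other 7 embryos were within a 1.32-fold range. HET 4, second lowest at Hbb-y, was not low at Hba-x.

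Hba-a1 and Hba-a2 encode α-globin. They are near-identical copies, so a probe of one may also capture RNA of the other, and their values are uncertain as measures of the single gene. Hba-a1 measured 7.27, 6.73, 6.79 and 5.47 in WT 1 to WT 4, and 6.73, 7.00, 6.59 and 6.66 in HET 1 to HET 4. Hba-a2 measured 8.68, 8.16, 8.22 and 7.48 in WT 1 to WT 4, and 8.19, 8.46, 8.48 and 8.31 in HET 1 to HET 4. Both were lowest in WT 4 and highest in WT 1, with the father groups overlapping. The range was 3.47-fold for Hba-a1 and 2.30-fold for Hba-a2. Each centred on its mean, Hba-a1 minus Hba-a2 ran from -0.42 in WT 4 and -0.29 in HET 3 to 0.18 in WT 1, so the copies did not keep one ratio of signal in every embryo.

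**Figure D1:**
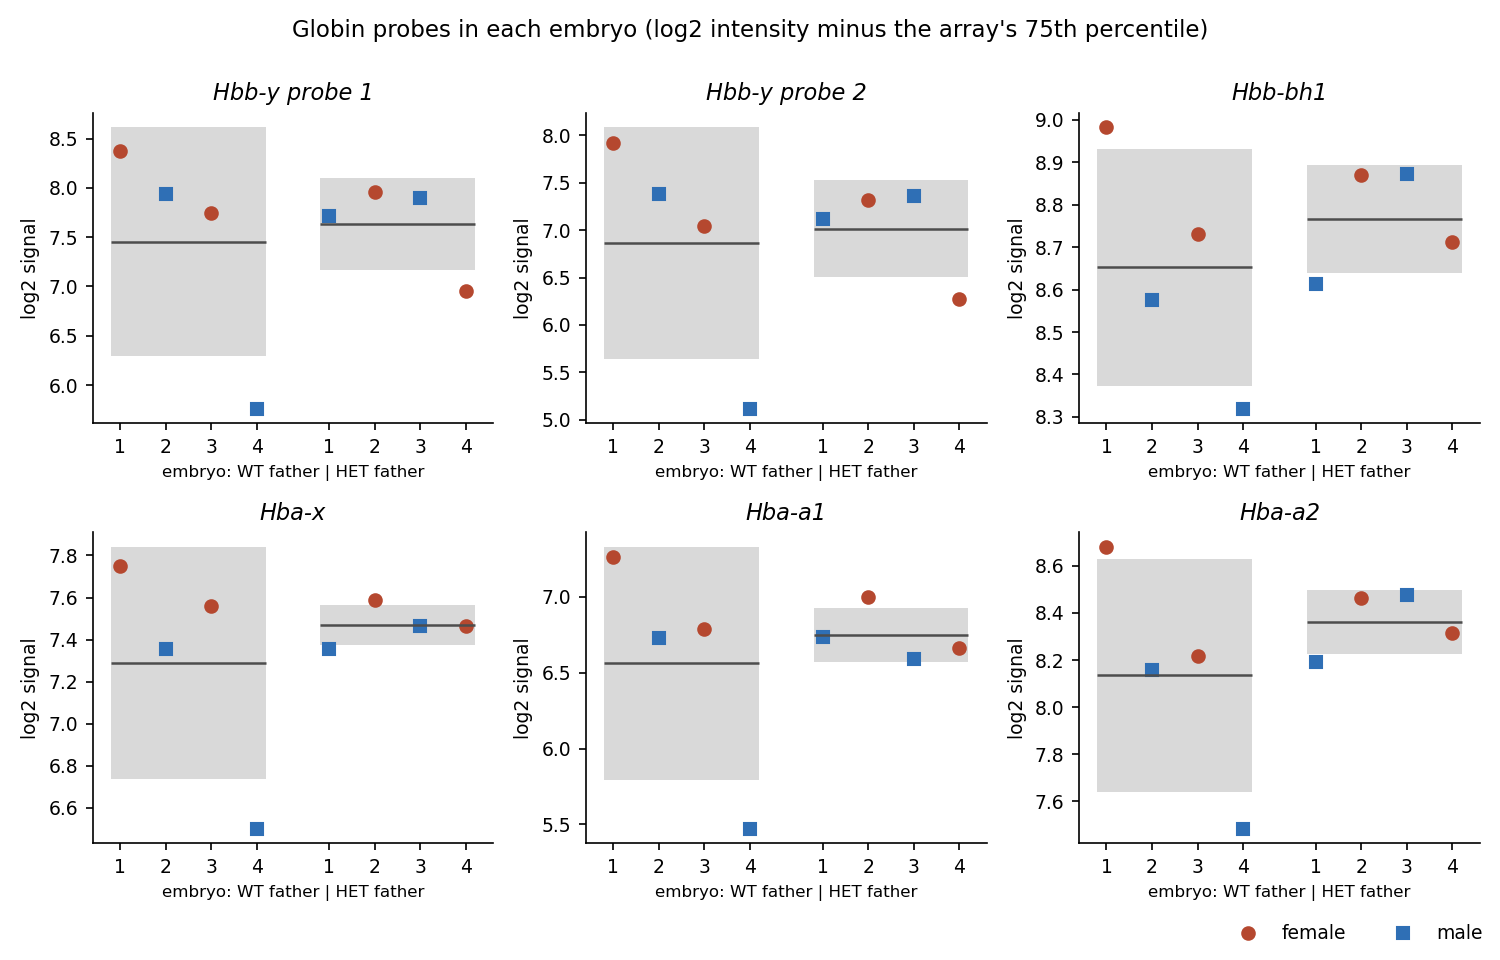
Log2 signal of the 6 globin probes (vertical axis, log2 intensity minus the 75th percentile of the array, own scale in each panel) in each embryo (horizontal axis, embryos 1 to 4 of wild-type and of heterozygous fathers). Circles are females and squares males, the line is the group mean and the grey band the mean ± SD (n = 4). WT 4 is the lowest and WT 1 the highest point of every panel, and the groups overlap throughout.

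The lowest and highest embryo depended on how arrays were scaled. Under quantile normalization, under normexp background correction followed by quantile normalization, and in the table of the whole series, WT 4 was lowest and WT 1 highest at 6 of 6 probes. When each array was shifted by its median instead, WT 4 was lowest at 3 of the 6, which were both Hbb-y probes and Hba-a1, HET 3 was lowest at Hbb-bh1, Hba-x and Hba-a2, and WT 1 was highest at 0. HET 3 had a smaller distance between its 75th percentile and its median than the average array, by 0.97 on the log2 scale, and WT 1 by 0.38. With the median shift, HET 3 was then the lowest embryo at 78.1% of 33068 tested probes with a value on every array, against 12.7% with the 75th percentile. These arrays also had the most probes well above background, 39530 on WT 1 and 38878 on HET 3, against 29203 to 35486 on the others. The mean deviation of the 5 genes in WT 4 was -1.003 with the 75th percentile and -0.939 with the median.

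**Figure D2:**
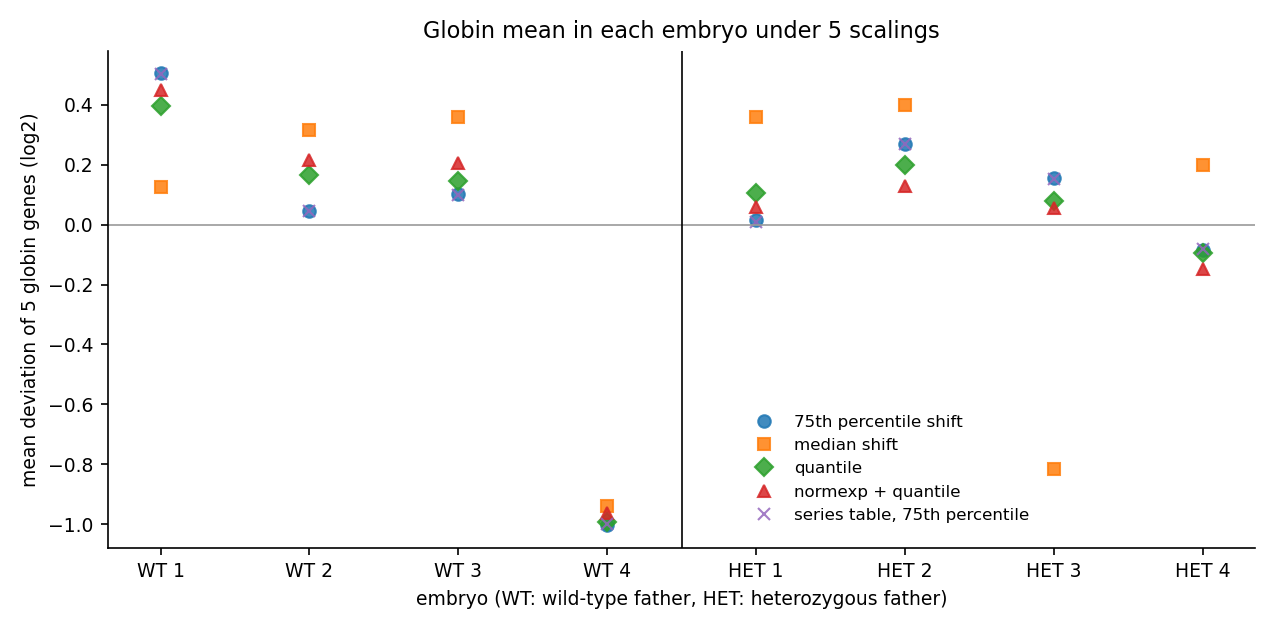
Mean deviation of 5 globin genes (1 probe a gene) from their 8-array mean (vertical axis, log2) in each embryo (horizontal axis) under 5 scalings, which the symbols mark. WT 4 lies between -1.003 and -0.939 under all 5, and HET 3 falls to -0.82 under the median shift while it lies between 0.055 and 0.155 under the others.

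The 6 globin probes varied together from embryo to embryo. Over the 8 embryos, Pearson's r between pairs of these probes ran from 0.81 to 1.00 over 15 pairs, with a median of 0.91. Without WT 4 it ran from 0.46 to 0.99, with a median of 0.64. Over 51 pairs that took in a probe of another globin gene, the median was 0.73, and 0.63 without WT 4. By rank (Spearman), also without WT 4, the coefficient was 0.25 for Hba-a1 and Hba-a2 and 0.96 for Hbb-bh1 and Hba-a2. These are descriptions over 8 arrays, whose points share the array and its scaling. The probes that were most alike without WT 4, beside the pair for Hbb-y (r = 0.99), were Hbb-bh1 and Hba-a2 (0.96) and Hbb-bh1 and Hba-x (0.87). Hbb-y followed the other genes less closely there, with r of 0.46 to 0.66 across its probes.

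No globin probe passed the test of a difference between the father groups. Of the 6 probes, 0 were called at an adjusted p under 0.01 and at least 2-fold (limma, Benjamini-Hochberg adjustment over all tested probes), where 0 of 33093 tested probes were called (0%). At an unadjusted p under 0.05 the count was 0 of 6, against 4.4% of all tested probes, and the father groups did not overlap at 0 of 6, against 3.22%. The differences were small beside the spread between embryos. Hbb-y was 7.46 ± 1.17 (SD, n = 4) with wild-type fathers and 7.63 ± 0.46 with heterozygous fathers at its first probe, a log2 fold change of 0.18 with a standard error of 0.56. Hbb-bh1 was 8.65 ± 0.28 (SD, n = 4) and 8.77 ± 0.13, a log2 fold change of 0.11 with a standard error of 0.15. Hba-x was 7.29 ± 0.55 (SD, n = 4) and 7.47 ± 0.10, a log2 fold change of 0.18 with a standard error of 0.26. The second Hbb-y probe had 0.15, Hba-a1 0.18 and Hba-a2 0.23, and all 6 adjusted p-values from limma were 0.9996.

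How large a difference these embryos leave possible differed between the genes. The 95% interval of the fold change, heterozygous over wild-type father, was 0.853 to 1.37 at Hbb-bh1, 0.747 to 1.71 at Hba-x and 0.799 to 1.72 at Hba-a2. It was 0.637 to 2.03 at Hba-a1 and 0.454 to 2.82 at the first Hbb-y probe. A 2-fold change in either direction lies outside the first 3 of these intervals. At Hba-a1 a 2-fold rise lies inside and a 2-fold fall outside, and at the first Hbb-y probe both lie inside. The Hbb-bh1 signal came up to the top of the spike-in linear range, and the part of that in its narrow interval was not tested. A p that misses the threshold does not show that the groups are alike.

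The direction of the father difference rested on WT 4. With all 8 embryos all 6 log2 fold changes were above 0, with a median of 0.18, where the median of all tested probes was 0.00295. Without WT 4, both Hbb-y probes (-0.39 and -0.43), Hba-x (-0.086) and Hba-a1 (-0.18) were below 0, while Hbb-bh1 and Hba-a2 were at 0.0028 and 0.0096. Hbb-bh1 was also below 0, at -0.088, when the median pixel signal was used with normexp and quantile normalization. The processed intensity of this spot was 1.03 to 1.05 times the median pixel signal on the wild-type father slide. On the heterozygous father slide it was 1.12 to 1.17 times that signal. This ratio was also higher there on every array at Hba-x (1.08 to 1.11, against 0.998 to 1.01), Hba-a2 and the first Hbb-y probe. The slides overlapped at the second Hbb-y probe and Hba-a1. With normexp, the father differences were 0.042 at Hba-x, 0.097 at Hba-a2 and 0.041 at the first Hbb-y probe. They were 0.14 at the second Hbb-y probe and at Hba-a1. The part of this ratio in the father differences was not tested.

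**Figure D3:**
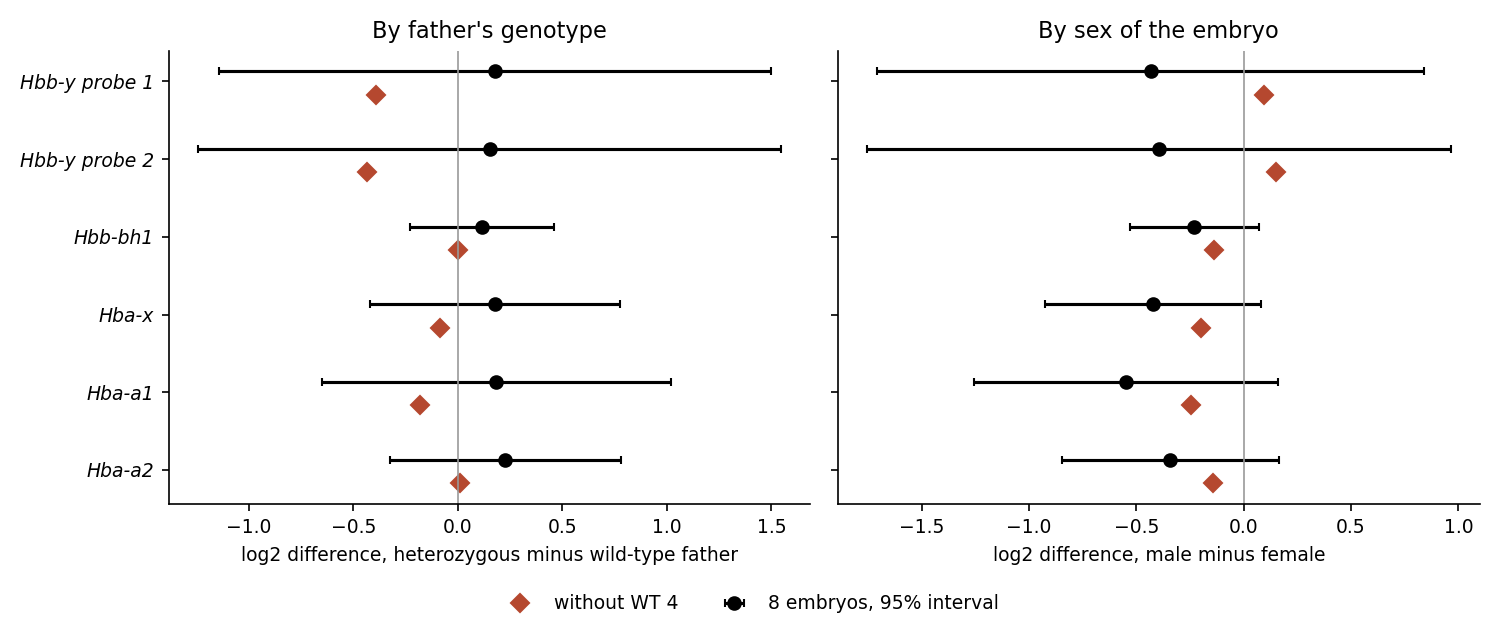
Log2 difference at the 6 globin probes (horizontal axis) between father groups on the left and between sexes on the right. Black circles with bars are the limma estimates from 8 embryos with 95% intervals, and red diamonds are the estimates without WT 4. Every interval includes 0, and the estimates of both Hbb-y probes change side without WT 4 in both panels.

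Male embryos had lower mean signal than females at all 6 globin probes, but none passed the test. Of the 6, 0 were called, by limma at the threshold above, against 0.0393% of tested probes, and 0 had an unadjusted p under 0.05, against 3.23%. The sexes did not overlap at 0 of 6, against 2.56%. Hba-x was 7.59 ± 0.12 (SD, n = 4) in females and 7.17 ± 0.45 in males, a log2 difference of -0.42 with a standard error of 0.21 (limma, unadjusted p = 0.0872). The other probes lay between -0.55 at Hba-a1 and -0.23 at Hbb-bh1.

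WT 4 is a male, and within slides the sex differences were not alike. With wild-type fathers, male minus female was -1.22 at the first Hbb-y probe, -0.73 at Hba-x and -0.41 at Hbb-bh1, from 2 embryos of each sex. With heterozygous fathers it was 0.35, -0.12 and -0.05. The test of that difference, father by sex, gave 0 calls among the 6 probes (0% of all tested probes) and 0 at an unadjusted p under 0.05, against 2.23% of all. The interaction ran from 0.36 at Hbb-bh1 to 1.68 at the second Hbb-y probe, with standard errors of 0.24 and 1.15 (limma, adjusted p = 0.996 for all 6). Without WT 4 the sex difference was 0.093 and 0.15 at the Hbb-y probes and stayed below 0 at the other 4. Without WT 2, which leaves WT 4 as the single male of its slide, the interaction reached 2.82 at the second Hbb-y probe, and 4 of the 6 had an unadjusted p under 0.05.

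Most genes of the erythroid lists, beyond the globins themselves, were also low in WT 4. The lists took in heme synthesis, erythroid transcription factors, the handling of globin, iron and heme, and the red cell membrane with its receptors, 45 tested genes in all. Of these, 32 had their lowest value in WT 4 (71.1%), against 11.1% of the 33068 probes, and 40 were below the mean of the other 7 embryos (88.9%), against 47.0%. With arrays shifted by their medians, 7 of the 45 were lowest in WT 4 (15.6%, against 1.42% of those probes). By list these were 1 of 8 in heme synthesis, 1 of 13 transcription factors, 0 of 10 handling genes and 5 of 14 membrane genes. Under that shift 38 of the 45 were below the mean of the others in WT 4 (84.4%, against 33.8%). The lists were chosen with these data known, and WT 4 was singled out by its own values, so these counts are given without a test.

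Heme synthesis had 8 of 8 genes below the mean of the other embryos in WT 4, and 6 lowest there. Alas2, the erythroid enzyme that starts heme synthesis, measured 2.89, 2.29, 2.66 and 1.13 in WT 1 to WT 4, and 2.59, 2.95, 2.55 and 2.34 in HET 1 to HET 4. It was 2.79-fold lower in WT 4 than the mean of the other 7 embryos. Alad, the second enzyme of the pathway, was 1.37-fold lower there, with HET 4 lower still.

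Erythroid transcription factors were lowest in WT 4 at 7 of 13 genes. Gata1, a master regulator of red cell genes, measured 3.55, 2.97, 3.36 and 2.40 in WT 1 to WT 4, and 3.01, 3.44, 3.14 and 3.45 in HET 1 to HET 4. Klf1, which drives β-globin and many other red cell genes, measured 1.91, 1.40, 1.69 and 0.70 with wild-type fathers and 1.54, 2.36, 2.16 and 1.77 with heterozygous fathers. Both were lowest in WT 4, 1.84-fold and 2.20-fold below the mean of the others. Of the factors that blood progenitors also use, Gata2 and Myb were 0.16 above the mean of the others in WT 4, while Tal1 was 0.49 and Lmo2 0.09 lower than it. Sox6 was 0.07 below it.

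Red cell membrane and receptor genes were lowest in WT 4 at 12 of 14. Rhag, a Rhesus-associated membrane protein, was 3.32-fold lower there than the mean of the others, and Slc4a1, the band 3 anion exchanger, 3.17-fold. The exceptions were Epb41 and Sptb, cytoskeletal genes, which were 0.05 and 0.10 above the mean of the others in WT 4. Among the genes that handle globin, iron and heme, 7 of 10 were lowest in WT 4, and Hmox1, a heme-degrading enzyme, was 1.81-fold lower there. Ahsp, the α-globin chaperone, had no matched probe.

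Other cell types were read from their markers in the same way. Of 9 visceral yolk sac endoderm genes, 9 were below the mean of the others in WT 4 and 7 were lowest there, with Afp 1.52-fold and Ttr 1.31-fold lower. With arrays shifted by their medians, 8 of the 9 were below the mean of the others and 0 were lowest in WT 4. Of 8 endothelial genes 0 were lowest in WT 4 and 5 were below the mean of the others. Of 10 genes of the embryo proper 0 were lowest there and 9 were above the mean of the others. Among these 9 were the mesoderm gene T, by 0.37, and the forebrain and midbrain gene Otx2, by 0.32. Of the 33068 probes, 11.1% were lowest in WT 4 and 47.0% below the mean of the others. A count of 0 lowest in lists this short is near that share. The mean deviation of the yolk sac list was -0.33 in WT 4 and between -0.07 and 0.22 in the other embryos, and that of the embryo list was 0.17 in WT 4 and between -0.11 and 0.08 in the others. The part of yolk sac in the globin difference was not tested. Megakaryocyte genes were lowest in WT 4 at 3 of 5, but at 1 of 5 under quantile normalization and under normexp, and at 0 of 5 with the median shift.

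In the decidua and trophoblast list, 0 of 5 tested genes were lowest in WT 4, against 11.1% of all tested probes. Of these 5, 2 were below the mean of the others there. A count of 0 in a list this short is near that share. Its mean deviation was -1.21 in HET 3 and between -0.21 and 0.46 in the other 7 embryos. In HET 3, Prl8a2 (-2.61, mean 0.97) and Prl3d1 (-2.99, mean -0.44) had their lowest values. Dcn was 0.98 there (mean 1.07), while Cryab (2.69, mean 2.59) and Des (-1.17, mean -1.26) were above their means. The decidual prolactin gene Prl8a2 was 2.31 in WT 4 and between -2.61 and 2.92 in the others. Its father difference was -2.45 (limma, unadjusted p = 0.0127, adjusted p = 0.9996). Of the macrophage and myeloid list, 2 of 5 genes could be tested, and Csf1r, a macrophage receptor, was 1.39-fold lower in WT 4.

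**Figure D4:**
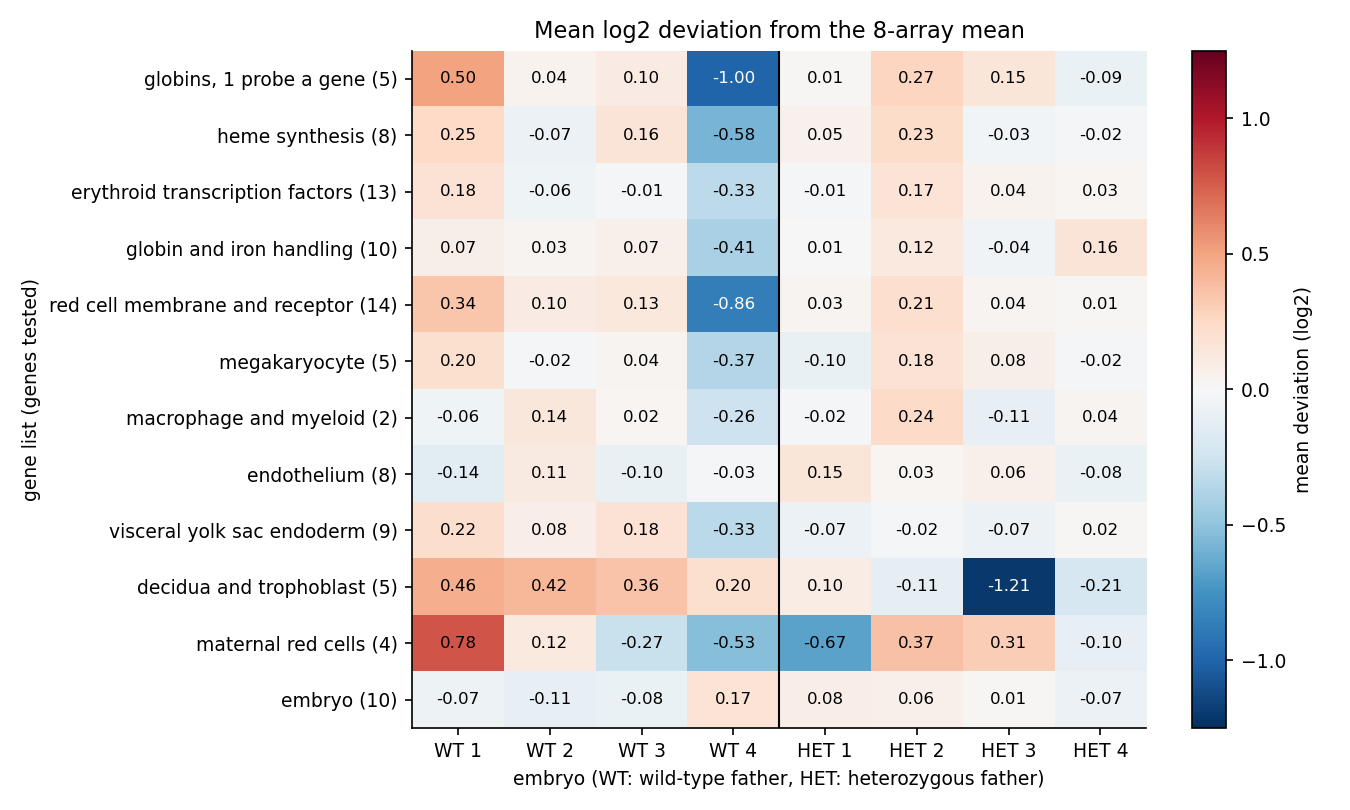
Mean log2 deviation from the 8-array mean for 5 globin genes and for 11 gene lists (rows, with the number of genes tested) in each embryo (columns). Red is above and blue below the mean, with the value printed in each cell. WT 4 is at -1.003 for the globins, -0.58 for heme synthesis, -0.86 for red cell membrane genes and -0.33 for yolk sac endoderm, and at 0.17 for the embryo list.

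Between the father groups, 0 of the 45 erythroid genes were called by limma, against 0% of all tested probes. Of the 45, 2 had an unadjusted p under 0.05 (4.44%, against 4.4% of all tested probes). These were Tal1, a regulator of blood formation, with a log2 fold change of 0.30 (unadjusted p = 0.028), and Steap3, an iron reductase, with 0.37 (unadjusted p = 0.043), both with a limma adjusted p of 0.9996. Of the 45, 37 were higher with heterozygous fathers (82.2%), against 50.7% of all tested probes. Without WT 4 this was 17 of 45 (37.8%, against 51.1%), and the median log2 fold change went from 0.11 to -0.05. Klf1 had the highest value of the transcription factors, 0.53 with a standard error of 0.29, and Sptb had the lowest of the membrane list, -0.63 with a standard error of 0.35, and neither passed the test. Rhag was the highest of that list, at 0.50. Heme synthesis ran from -0.03 at Alad to 0.36 at Alas2, and globin and iron handling from -0.04 at Tfrc to 0.37 at Steap3.

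The lists of other cell types had 0 genes called between the father groups by limma, where 0 of all 33093 tested probes were called. In the yolk sac list the log2 fold change ran from -0.44 at Apoa4 to 0.06 at Apoa1, both apolipoproteins. The lowest megakaryocyte gene was Gp1bb, at -0.24. The log2 fold change ran from 0.0028 at Cdh5 to 0.18 at Tek in endothelial genes, and from -0.07 at Sox2 to 0.33 at Meox1 in genes of the embryo. Mpo was at -0.01 and Csf1r at 0.16 in the myeloid list, Cryab at -0.05 was the highest of the decidual list, and Car1 was at 0.19.

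The globin mean was compared with 5886 probes that were well above background on all 8 arrays and varied enough. Among them, the 10 genes most like it were Elavl4 (Pearson's r = 0.99), Uba7, Kel, Acp5, Alas2, Ermap, Nfe2, Dhh, Xk and Slc4a1 (0.96), over 8 embryos. Without WT 4 these coefficients were 0.75 to 0.94. Kel, Ermap, Xk and Slc4a1 encode red cell membrane proteins, Nfe2 a transcription factor of red cells and platelets, and Acp5 an acid phosphatase known from osteoclasts. Elavl4, an RNA-binding protein known from neurons, measured, as deviation from its mean, 0.44, 0.13, 0.14 and -0.94 in WT 1 to WT 4 and -0.0030, 0.24, 0.17 and -0.19 in HET 1 to HET 4. All 10 were lowest in WT 4, which follows from how they were picked, since WT 4 was the extreme embryo of the globin mean.

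The other globin genes of both clusters did not all follow the embryonic genes. Hbb-bs and Hbb-bt are the adult β genes of one mouse haplotype and Hbb-b1 and Hbb-b2 those of another. Which haplotypes these embryos carry is not given in the labels, and Hbb-b1 had no matched probe. These adult genes are near-identical to each other, so their probes are uncertain as measures of a single gene. Adult β genes and Car1, a carbonic anhydrase, also mark the red cells of the mother. Of that list 3 of 4 genes were lowest in WT 4, but 2 under quantile normalization and 1 under normexp or the median shift. All 4 were below the mean of the others under each of these scalings, and the part of the mother's cells in these values was not tested.

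Hbb-b2 measured 1.53, 1.03, 0.93 and -0.0023 in WT 1 to WT 4, and 0.41, 1.07, 0.71 and 0.99 in HET 1 to HET 4. It was lowest in WT 4, as the embryonic genes were. Hbb-bt measured 3.10, 1.95, 0.49 and 1.45 in WT 1 to WT 4, and 0.35, 2.45, 2.77 and 0.28 in HET 1 to HET 4. Here HET 4, HET 1 and WT 3 were low and WT 4 was not, and the range of 7.05-fold was the same with and without WT 4. Hbb-bs, with -1.54 in WT 4 and -1.48 in HET 1, had both low.

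Hbb-bh2, an intact β-type gene of unclear use, and Hbq1a, a θ-type gene of the α cluster, moved with Hbb-bt. Over the 8 embryos r was 0.93 between Hbb-bt and the first Hbb-bh2 probe and 0.76 between Hbb-bt and Hbq1a. Hbq1a did not follow Hbb-bt alone, with r of 0.85 to the first Hbb-bh2 probe, 0.81 to Hbb-bs and 0.75 to the embryonic Hbb-bh1. The dim probes, the first of Hbb-bh2 and that of Hbq1a, were highest in HET 3 and next in WT 1. These arrays had the most probes above background, and Hbb-bt was highest in WT 1 and next in HET 3. The part of that array-wide difference in these values was not tested. The second Hbb-bh2 probe was well above background on 1 of 8 arrays and was not tested. Hbq1b, the other θ-type gene, measured -3.31 in WT 4 and between -2.63 and -1.98 in the others.

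None of the other globin probes passed the test between father groups. Of the 6 tested, 0 were called by limma, where 0 of all 33093 tested probes were called. Their log2 fold changes ran from -0.29 at Hbb-bt, with a standard error of 0.77, to 0.18 at the first Hbb-bh2 probe, with a standard error of 0.57. By sex, Hbb-b2 was 1.13 ± 0.27 (SD, n = 4) in females and 0.54 ± 0.44 in males, a log2 difference of -0.59 (limma, unadjusted p = 0.0389, adjusted p = 0.9996). It was the only one of these probes with an unadjusted p under 0.05 by sex, a level that 3.23% of all tested probes reached.

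**Figure D5:**
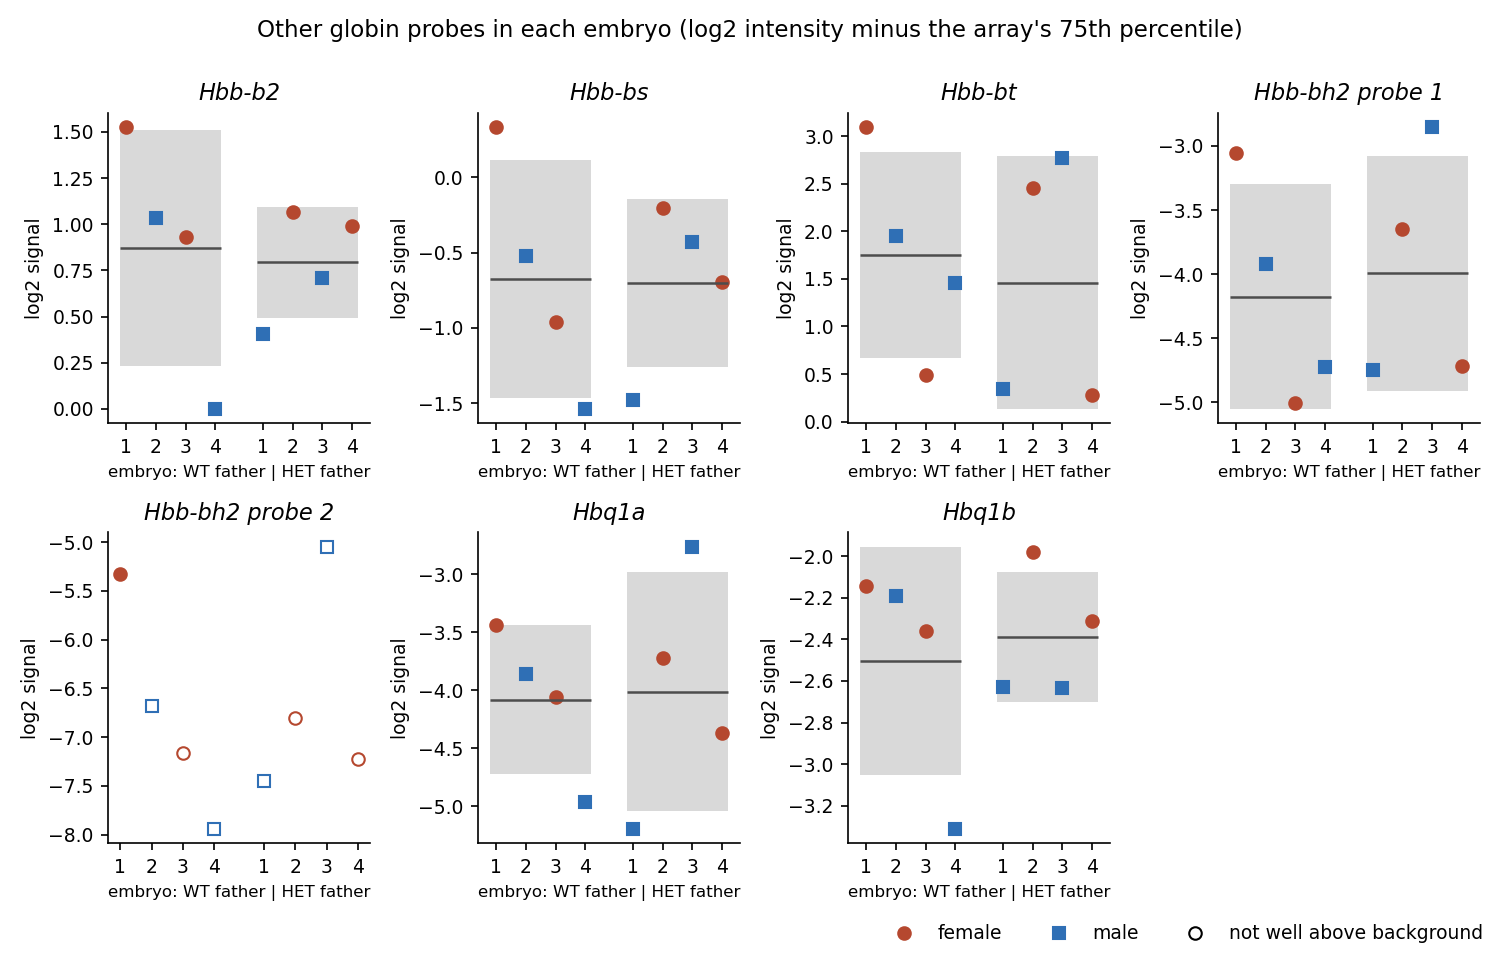
Log2 signal of 7 probes of other globin genes (vertical axis, log2 intensity minus the 75th percentile of the array, own scale in each panel) in each embryo (horizontal axis, embryos 1 to 4 of wild-type and of heterozygous fathers). Circles are females, squares males and open symbols not well above background, with the line and grey band giving the mean ± SD (n = 4) where all arrays measured the probe. WT 4 is lowest for Hbb-b2, Hbb-bs and Hbq1b but not for Hbb-bt.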

How the data were processed

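RNA of 8 single embryos was labelled with Cy3 and hybridised to Agilent 8x60K arrays, and the authors read the spots with Feature Extraction (11.0.1.1; build mm9, per the file headers). In the deposited intensity values the background is subtracted and the spatial trend removed, with no scaling across arrays. The series' deposited table, which holds the same intensity signal on a linear scale (0 unused sample columns), was an alternative. The study's methods name a percentile shift but neither the percentile nor a test.

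The log2 intensity was shifted by each array's 75th percentile over spots that are not controls. Outlier spots were dropped and the rest averaged by probe. Probes among the dimmest 20%, or well above background on under 4 arrays, were not tested. Symbols came through RefSeq accessions (27235 of 28685 probes matched, table of GRCm38.p6). Groups were compared with limma 3.58.1 (R 4.3.3, statmod 1.5.0), which was checked on simulated data, and the number of arrays limits precision. Alternatives were other scalings, filters, covariates, blocks, weights, moderation and thresholds, and each embryo left out.

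Lists used a gene's brightest tested probe. Named were all globin probes, the highest and lowest father difference of each list, Gata1, Klf1, Alas2 and Ahsp, and the 10 genes most like the globin mean, among probes well above background on all arrays with an SD at least 0.5 times that of the globin mean. Tal1, Lmo2, Gata2, Myb, Hmox1, Epb41, Afp, Ttr, T, Otx2, Prl3d1, Dcn and Des were named after their values were seen. Some genes that the rule names are not reported here. Members and lists were chosen with earlier results of these data known. Figures were drawn with matplotlib 3.10.9 under Python 3.11.15.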

Additional observations from a re-analysis of the deposited data

Results flagged for a closer look

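For 94 sets of 4 embryos of the same father group, the distance from the most extreme embryo to the nearest of the others was divided by the range of the set. This ratio passed Dixon's 95% critical value in 5 sets, and about 1 in 20 sets, 4.7 here, would do so by chance. None of the 5 was a globin probe. In WT 4, the mean of the genes that handle globin, iron and heme stood low (ratio 0.918), and the mean of the embryo list stood high (0.857). In HET 2 the mean of the red cell membrane list stood high (0.887). In HET 4, Car1 stood high (0.839), at -1.49 against -2.47 to -2.31 in the other 3 embryos with heterozygous fathers. In HET 3, the decidual gene Prl8a2 stood low (0.876), at -2.61 against 0.31 to 0.72.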

How the results depend on the processing

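The count of called globin probes was 0 of 6 for father, sex and father by sex under every alternative run, including an adjusted p under 0.05 without a fold limit and each embryo left out. Between father groups, 1455 of all 33093 tested probes had an unadjusted p under 0.05 (limma). With medians aligned this was 479 of 33093, and without the filter 5360 of 55681. With array weights it was 3056 and with normexp 2625, each of 33093. At an unadjusted p under 0.05 the father count of globin probes was also 0 throughout. The sex count was 1 with the replicate block and 1 with array weights, and 0 to 1 with an embryo left out. The father by sex count was 0 to 4 with an embryo left out, 4 without WT 2. The erythroid genes at an unadjusted p under 0.05 between father groups, 2 of 45, became 1 with medians aligned, without the filter or with sex as a covariate, 4 with normexp, with trended and robust moderation or with array weights, 0 with the replicate block or a random block for the embryo code, and between 0 and 3 when any embryo was dropped (0 without HET 2, 1 without WT 2, HET 1 or HET 4). Replicate numbers were not shown to pair the embryos: the deviations of same-numbered embryos correlated at -0.55, -0.05, -0.59 and -0.15. The replicate block could not be fitted for father by sex, since the replicate number fixes the interaction term.

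Signs changed at a few probes, all with limma's adjusted p above 0.01. With medians aligned, which moved the median interaction of all tested probes from 0.06 to -0.69, the father by sex term was -0.39 at Hbb-bh1, -0.14 at Hba-x and -0.17 at Hba-a2. Normexp gave a father difference of -0.088 at Hbb-bh1. A random block for the embryo code gave -0.019 and -0.073 at the Hbb-y probes. With an embryo left out, the father difference ran from -0.39 to 0.49 and from -0.43 to 0.50 at the Hbb-y probes, from -0.086 to 0.33 at Hba-x and from -0.18 to 0.42 at Hba-a1, and the sex difference from -0.70 to 0.093 and from -0.68 to 0.15 at the Hbb-y probes. The negative father values and positive sex values are those without WT 4. The cause was not tested, apart from the shift of all probes that aligning medians makes. Counts in WT 4 by scaling, values within slides and the erythroid direction without WT 4 were chosen after seeing the data.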
